A study of Mus musculus with 6 samples.

Results

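The genes described here are 10 members of the antioxidant program controlled by NRF2, out of 55335 mouse genes in the table. They were taken by symbol, as known genes of this program, with earlier results of these data known: *Nfe2l2*, *Keap1*, *Nqo1*, *Gclm*, *Gclc*, *Txnrd1*, *Srxn1*, *Prdx1*, *Slc7a11* and *Gsr*. They were measured by RNA-seq in bone marrow-derived macrophages (BMDMs) grown for 7 days in 25 ng/ml M-CSF from marrow cells of *Cd177* wild-type (WT) mice. For 24 h these BMDMs shared a dish with neutrophils that had been isolated by MACS from the spinal cord lesion at 3 days post-injury (dpi), and were then sorted by FACS as Ly6G- cells. The neutrophils came from *Cd177* WT mice in 3 libraries and from *Cd177* knockout (KO) mice in the other 3, so only the added neutrophils differed in genotype, and the comparison asks how these neutrophils bear on gene expression in macrophages. The study used male C57BL/6 mice with a contusion at T10, and bought its *Cd177*-/- mice from a supplier. Whether neutrophils of several mice were pooled, and whether the 3 libraries of a group came from separate cultures, is not given in the sources used here, so the p-values measure the spread between these libraries only. No library of BMDMs without neutrophils and none of neutrophils alone was analysed here.

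NRF2, the protein of *Nfe2l2*, is a transcription factor that is held in the cytoplasm and passed to the proteasome by KEAP1. Oxidants and electrophiles modify cysteines of KEAP1, NRF2 then escapes degradation, enters the nucleus and, paired with a small MAF protein, binds antioxidant response elements near its target genes. Its targets import cystine, make and recycle glutathione, keep thioredoxin and peroxiredoxins reduced and detoxify quinones. In macrophages the program is known to be induced by inflammatory stimuli, by heme and by metabolites that alkylate KEAP1, and to limit oxidant damage during the oxidative burst.

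Promoter windows from RefSeq (GRCm38.p6) were available for 8 of the 10 members, and *Gclc* and *Gsr* were not in that table. The windows were searched on both strands for the core antioxidant response element, TGACNNNGC. It was found for 5 of the 8 members, against 14.0% of 27025 genes in the table. The 4 matches that lie before the start site are shown because NRF2 is known to bind this element. They belong to *Gclm*, *Prdx1* and *Txnrd1*, which were lower, as were 8 of the 10 members, and to *Nfe2l2*, which was higher. In the following stretches, written 5′ to 3′ on the strand of the gene, capitals mark the match, which in *Gclm*, *Prdx1* and *Txnrd1* reads in the reverse direction.
Gclm: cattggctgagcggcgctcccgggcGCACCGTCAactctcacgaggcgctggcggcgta
Prdx1: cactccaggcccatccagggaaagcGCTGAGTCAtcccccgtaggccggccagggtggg
Txnrd1: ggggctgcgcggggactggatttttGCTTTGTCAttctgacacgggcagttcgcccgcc
Nfe2l2: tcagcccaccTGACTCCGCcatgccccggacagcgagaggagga
These lie at chr3:122245398-122245456 (+) for *Gclm*, chr4:116685441-116685499 (+) for *Prdx1*, chr10:82859089-82859147 (+) for *Txnrd1* and chr2:75704870-75704913 (-) for *Nfe2l2*. *Txnrd1* has 3 windows for its alternative starts and the match is in 1 of them. The match of *Srxn1* lies after the start site.

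Before the start site *Srxn1* holds 2 copies of the AP-1 element TGANTCA, which is close in letters to the antioxidant response element and is in capitals here.
Srxn1: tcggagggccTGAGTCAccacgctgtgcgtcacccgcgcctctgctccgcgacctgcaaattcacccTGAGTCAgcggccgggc
This stretch is chr2:152105412-152105495 (+). Windows of 9.0% of genes hold this AP-1 element, and among the members *Prdx1* is the other, where 1 of its 2 copies overlaps the antioxidant response element. The windows of *Slc7a11*, *Nqo1* and *Keap1* hold neither motif, which says only that these letters are not in these windows. *Slc7a11* is shown as well, since it is the member that differed most. Its window holds 2 copies, in opposite directions, of TGATGNAA, the core of the element that ATF4 binds in genes of amino acid supply. This motif was added after the sequence had been read, and it occurs for 4.5% of genes and for no other member with a window.
Slc7a11: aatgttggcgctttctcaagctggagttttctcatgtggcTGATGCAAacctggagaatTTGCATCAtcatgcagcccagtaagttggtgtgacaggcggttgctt
The stretch is chr3:50443614-50443719 (-). A match in letters is a description and not evidence of binding.

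The values are FPKM, fragments scaled to transcript length and to the library's total, as the authors deposited them. They carry no counts, so the depth of a library is not known here. *Cd177* itself was listed at 0.544, 0.309 and 0.521 FPKM in libraries labelled WT and at 1.79, 1.84 and 2.28 FPKM in those labelled KO. This runs against the labels, although the sequenced BMDMs carry the intact gene in each group, so directions are given between libraries as labelled, and neutrophils are called WT-labelled or KO-labelled. All 10 macrophage markers, among them *Adgre1*, *Csf1r* and *Cd68*, were above 0.5 FPKM on average, with a summed level of 8755 to 10856 FPKM for the label WT and 8805 to 9745 FPKM for the label KO. Of 20 neutrophil markers, 17 had a higher mean in the libraries labelled KO, with a summed level of 561 to 576 FPKM against 203 to 263 FPKM. Only 14 of the 20 were above 0.5 FPKM on average, so some of these differences are between values near 0. The 3 with a lower mean were *Mmp8*, at 21.9 FPKM for the label WT and 9.80 FPKM for the label KO, and the low *Elane* and *Ctsg*. *Ly6g*, whose product was used for the sort, had 0.660, 0.547 and 0.403 FPKM in libraries labelled KO, while each one labelled WT lists it at 0. The summed level of 6 B cell markers also stood higher in the libraries labelled KO, at 13.1 to 15.4 FPKM against 0.711 to 1.35 FPKM, nearly all of it *Ighm* and *Cd79b*. Of 10 spinal cord markers, 4 were listed at 0 throughout, and 2, *Tubb3* and *Mbp*, were above 0.5 FPKM on average. The summed level of the 10 was 15.9 to 18.3 FPKM for the label WT and 20.1 to 21.9 FPKM for the label KO. The part of these other cells in the values of the antioxidant genes was not tested. In bulk RNA, fewer cells of a type and less RNA per cell cannot be told apart. Replicate 3 stood apart in each group: in the group labelled WT its values were higher than those of the other replicates by a median of 0.38 (log2) in transcripts under 1.5 kb and differed by a median of -0.38 in transcripts above 5 kb, and in the group labelled KO these medians were 0.12 and -0.19.

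All 10 members reached the mean of 0.5 FPKM that was required for testing, as did 13367 of all genes. Tests were run with limma on log2(FPKM + 0.5), where low genes show less than their true change, and p-values were adjusted over the whole set by the Benjamini-Hochberg method. Under an adjusted p-value of 0.05, 9 of the 10 members were called, 8 of them lower and 1 higher with KO-labelled neutrophils. The same threshold called 37.6% of all tested genes, 10.5% lower and 27.1% higher. The median log2 fold change of the members was -1.12, that of all tested genes 0.19, and members are therefore also read against this shift. With the fold change above 2 and unadjusted p-value under 0.05 that the study's methods name, 6 members were lower and none was higher, where 11.1% of the tested genes passed, 4.43% lower and 6.68% higher. The groups did not overlap in any of the 10 members, nor in 51.9% of the tested genes. In 9 members each library labelled WT lay above each library labelled KO, which was so in 14.4% of the tested genes.

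**Figure D1:**
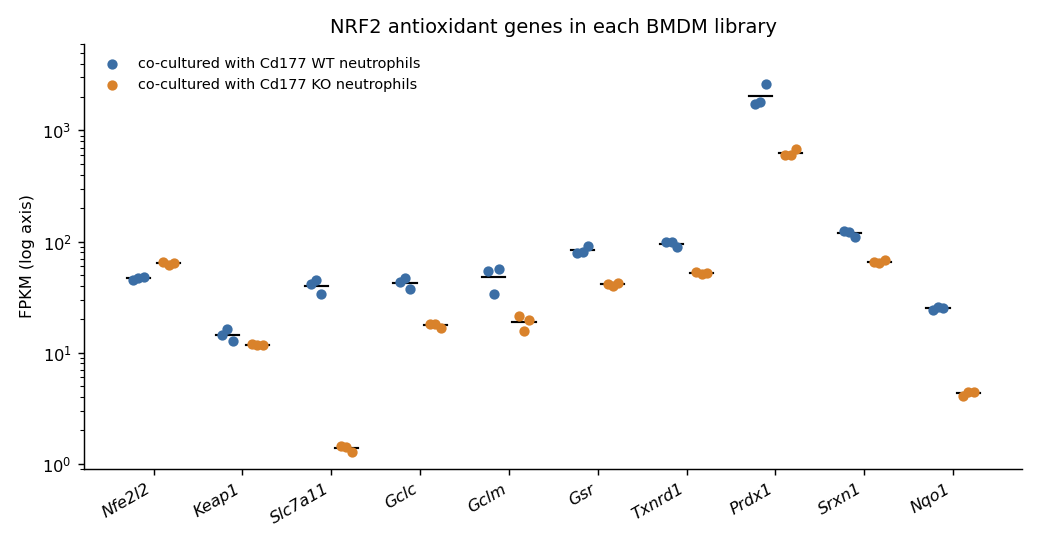
Expression of the 10 NRF2 antioxidant genes (x axis, ordered by role) in FPKM on a log axis, with 1 point per library, 3 libraries per group, and a bar at the mean of each group. The groups do not overlap for any member; *Nfe2l2* alone is higher in the libraries labelled KO, and *Slc7a11* shows the widest gap.

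*Nfe2l2* (ENSMUSG00000015839, chromosome 2 from 75675513 to 75704641 in GENCODE M21, GRCm38, which gives the positions of all members here) encodes the factor NRF2. It had 45.2, 47.4 and 48.0 FPKM with WT-labelled neutrophils and 64.9, 60.9 and 64.5 FPKM with KO-labelled neutrophils. Thus the gene of the factor was the one member that was higher in the libraries labelled KO, where the groups did not overlap. The log2 fold change was 0.43 (standard error 0.07, 95% interval 0.26 to 0.61, adjusted p = 0.00431), which is 0.24 above the median of all genes. With median-of-ratios or upper-quartile scaling between libraries the rise did not pass the test, at 0.21 and 0.22 (adjusted p = 0.104 and 0.101).

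*Keap1* (ENSMUSG00000003308, chromosome 9 from 21229730 to 21239361) encodes the adaptor that hands NRF2 to the proteasome. Its level was the lowest of the members in the libraries labelled WT, at 14.3, 16.3 and 12.8 FPKM, and was 12.0, 11.6 and 11.6 FPKM with KO-labelled neutrophils. The values of the groups came close to each other without overlap. Its log2 fold change of -0.28 (standard error 0.10, 95% interval -0.53 to -0.04) did not pass the adjustment (adjusted p = 0.0716). It passed with median-of-ratios, upper-quartile and quantile scaling, with -0.50, -0.49 and -0.37 (adjusted p = 0.00815, 0.00761 and 0.0314), and without replicate 3 of the group labelled WT, with -0.36 (adjusted p = 0.0157).

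Since scaling between libraries decided both of these calls, the ratio of *Nfe2l2* to *Keap1* within each library, which a single scaling factor per library leaves unaltered, was taken as well. It was 3.16, 2.91 and 3.74 in the libraries labelled WT and 5.42, 5.25 and 5.54 in those labelled KO. Each library labelled KO thus had more transcript of the factor per transcript of its inhibitor than any labelled WT, with a difference of 0.73 on the log2 scale (WT 1.70 ± 0.18, KO 2.43 ± 0.04, SD, n = 3 each). An exact two-sided permutation test gave p = 0.1, the smallest that 3 libraries against 3 can give.

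*Slc7a11* (ENSMUSG00000027737, chromosome 3 from 49892526 to 50443614), whose promoter stretch is given above, encodes xCT, the light chain of the cystine/glutamate antiporter that brings in cystine for glutathione. It had 41.5, 44.7 and 33.6 FPKM with WT-labelled neutrophils and 1.45, 1.41 and 1.28 FPKM with KO-labelled neutrophils. Every library labelled KO lay far under the lowest one labelled WT, and the mean fell 29.0-fold. The log2 fold change was -4.42 (standard error 0.12, 95% interval -4.71 to -4.12, adjusted p = 2.36e-06), a fall exceeded by only 25 of the tested genes, since *Slc7a11* was the 26th lowest of 13367. Its level moved from that of *Gclc* and *Gclm* in the libraries labelled WT to the lowest of the 10 members in those labelled KO.

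*Gclc* and *Gclm* encode the catalytic and the modifier subunit of glutamate-cysteine ligase, the enzyme of the rate-limiting step of glutathione synthesis. *Gclc* (ENSMUSG00000032350, chromosome 9 from 77754535 to 77794485) had 43.1, 46.9 and 37.4 FPKM with WT-labelled neutrophils and 18.1, 18.1 and 16.5 FPKM with KO-labelled neutrophils. *Gclm* (ENSMUSG00000028124, chromosome 3 from 122245557 to 122270732) had 54.0, 33.5 and 57.0 FPKM with WT-labelled neutrophils and 21.3, 15.7 and 19.5 FPKM with KO-labelled neutrophils. Replicate 2 was the lowest for *Gclm* in each group, and the groups were nevertheless apart for each subunit. *Gclc* fell by 1.24 on the log2 scale (standard error 0.11, adjusted p = 0.000219) and *Gclm* by 1.31 (standard error 0.22, adjusted p = 0.00414), with 95% intervals of -1.49 to -0.99 and -1.83 to -0.78.

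The ratio of *Gclm* to *Gclc* was 1.25, 0.714 and 1.52 in the libraries labelled WT and 1.173, 0.870 and 1.175 in those labelled KO, and the groups overlapped. A difference between the groups was not detectable, at -0.06 on the log2 scale beside SDs of 0.57 and 0.25 (n = 3 each, exact two-sided permutation test, p = 0.8). *Gclm* shares its span with an annotated processed pseudogene on the same strand, *Gm6061*, whose level was at most 4.03 FPKM, and *Txnrd1* overlaps *Eid3* on the same strand (at most 2.34 FPKM). *Keap1*, *Gclm* and *Txnrd1* also overlap transcripts of the opposite strand, at most 2.50 FPKM, and whether counting used the strand is not given in the sources used here.

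*Gsr* (ENSMUSG00000031584, chromosome 8 from 33652523 to 33698163) encodes glutathione reductase, which returns oxidized glutathione to its reduced form with NADPH. It had 79.2, 80.3 and 90.2 FPKM with WT-labelled neutrophils and 41.7, 39.8 and 42.5 FPKM with KO-labelled neutrophils. No library labelled KO came near those labelled WT, and the mean fell 2.01-fold. The log2 fold change was -1.0 (standard error 0.08, 95% interval -1.20 to -0.80, adjusted p = 0.000216), so *Gsr* lay just inside the fold change of 2, with *Txnrd1* the next outside it.

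*Txnrd1* (ENSMUSG00000020250, chromosome 10 from 82833951 to 82897712) encodes the cytosolic thioredoxin reductase, a selenoprotein that keeps thioredoxin reduced. It had 98.7, 99.0 and 89.3 FPKM with WT-labelled neutrophils and 52.9, 51.1 and 51.7 FPKM with KO-labelled neutrophils. The spread within a group was small beside the gap between the groups. The log2 fold change was -0.87 (standard error 0.08, 95% interval -1.06 to -0.69, adjusted p = 0.000283). The ratio of *Gsr* to *Txnrd1*, the reductases of the glutathione and the thioredoxin system, was 0.802, 0.811 and 1.01 in the libraries labelled WT and 0.788, 0.778 and 0.822 in those labelled KO, and a difference of -0.13 on the log2 scale lay within this spread (exact two-sided permutation test, p = 0.3). It was -0.02 without replicate 3 of the group labelled WT and -0.19 without replicate 1 of that group.

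*Prdx1* (ENSMUSG00000028691, chromosome 4 from 116685544 to 116700822) encodes peroxiredoxin 1, which reduces hydrogen peroxide and is itself reduced by thioredoxin. It was by far the most abundant member, with 1728, 1793 and 2602 FPKM with WT-labelled neutrophils and 595, 600 and 677 FPKM with KO-labelled neutrophils. It alone made up 0.566% to 0.764% of the FPKM of the libraries labelled WT and 0.193% to 0.210% of those labelled KO. Replicate 3 was the highest in each group and the groups were far apart. The log2 fold change was -1.69 (standard error 0.17, 95% interval -2.09 to -1.28, adjusted p = 0.000459), and -1.498 without replicate 3 of the group labelled WT.

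*Srxn1* (ENSMUSG00000032802, chromosome 2 from 152105516 to 152111376) encodes sulfiredoxin, which repairs peroxiredoxins that peroxide has overoxidized. It had 124.5, 121.9 and 110.0 FPKM with WT-labelled neutrophils and 64.7, 64.0 and 67.9 FPKM with KO-labelled neutrophils. The drop was again seen in every library, and its log2 change was -0.85 (standard error 0.08, 95% interval -1.05 to -0.66, adjusted p = 0.000382). *Prdx1* fell further than *Srxn1*, and the ratio of *Srxn1* to *Prdx1* was higher in each library labelled KO, at 0.1088, 0.1066 and 0.1003 against 0.0721, 0.0680 and 0.0423 in those labelled WT. The difference was 0.83 on the log2 scale (exact two-sided permutation test, p = 0.1, the smallest possible) and 0.59 without replicate 3 of the group labelled WT.

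*Nqo1* (ENSMUSG00000003849, chromosome 8 from 107388225 to 107403206) encodes NAD(P)H quinone dehydrogenase 1, which reduces quinones by 2 electrons at once and serves widely as a marker of NRF2 activity. It had 24.2, 25.7 and 25.3 FPKM with WT-labelled neutrophils and 4.08, 4.40 and 4.41 FPKM with KO-labelled neutrophils. Replicates differed little in each group and the mean fell 5.83-fold. The log2 fold change was -2.41 (standard error 0.08, 95% interval -2.61 to -2.22, adjusted p = 3.85e-06), the next largest fall among the members after *Slc7a11* and the 144th lowest of all tested genes.

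**Figure D2:**
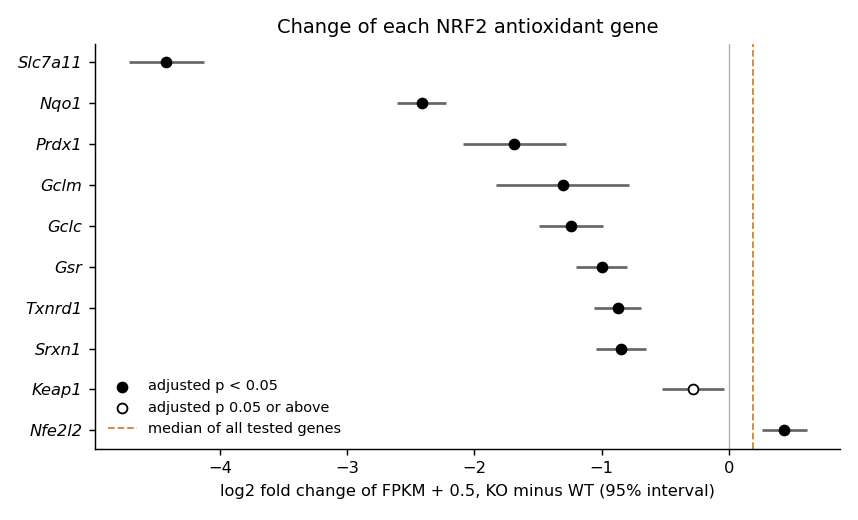
Log2 fold change of each member (KO minus WT, on FPKM + 0.5) with its 95% interval from limma, 3 libraries per group. Filled points passed an adjusted p-value of 0.05, the open point (*Keap1*) did not, and the dashed line is the median of all tested genes at 0.19. The falls that passed run from -0.85 for *Srxn1* to -4.42 for *Slc7a11*, while *Nfe2l2* lies to the right of the line.

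The members thus differed in size of change more than in direction. The interval of *Slc7a11* lay apart from those of all other members, and so did that of *Nqo1*. The intervals of *Prdx1*, *Gclm* and *Gclc* overlapped each other, as did those of *Gsr*, *Txnrd1* and *Srxn1*, and the intervals of *Gclm* and *Gclc* reached into both sets. *Prdx1* and *Srxn1* had the highest mean levels in each group, and in the libraries labelled KO the ranges of *Srxn1* and *Nfe2l2* overlapped. In the libraries labelled WT the ranges of *Gclm*, *Nfe2l2*, *Gclc* and *Slc7a11*, in this order of their means, each overlapped the next, and that of *Slc7a11* lay below that of *Nfe2l2*. In those labelled KO *Nfe2l2* had the third highest mean and *Slc7a11* the lowest. Without *Prdx1* the remaining members summed to 525, 516 and 504 FPKM with WT-labelled neutrophils and to 281, 267 and 280 FPKM with KO-labelled neutrophils.

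**Figure D3:**
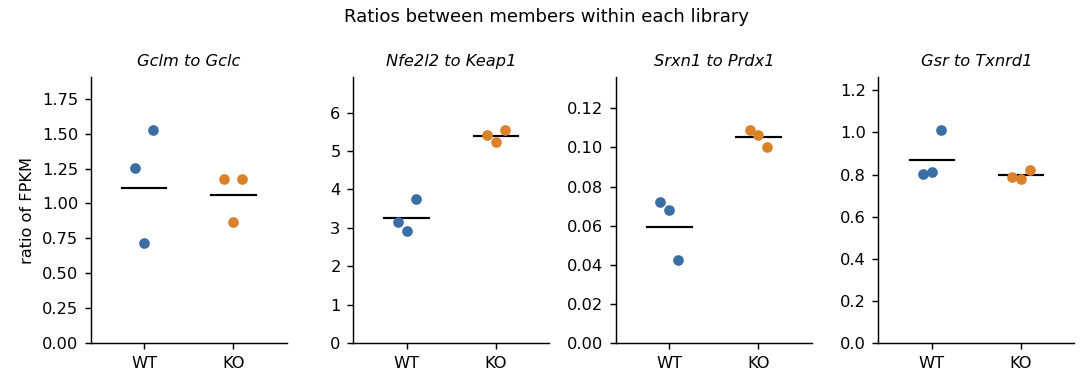
Ratios of FPKM between paired members within each library (y axes from 0, 1 panel per pair), with 3 libraries per group and a bar at the geometric mean. *Nfe2l2* to *Keap1* and *Srxn1* to *Prdx1* are higher in every library labelled KO, while the groups overlap for *Gclm* to *Gclc* and *Gsr* to *Txnrd1*.

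The rest of the pathway was followed in 5 lists of other genes grouped by role, 111 in all, and 106 of their rows were tested, of which 28 fell and 24 rose with KO-labelled neutrophils (26.4% and 22.6%, against 10.5% and 27.1% of all tested genes). In the same order, the counts were 37 and 17 with median-of-ratios scaling, which called 2259 of all tested genes lower and 2057 higher. Among 20 tested other targets of NRF2, 9 were lower and 2 higher, and the median of the log2 fold changes was -0.42. *Hmox1*, the heme oxygenase, had 3159, 3125 and 3695 FPKM with WT-labelled neutrophils and 396, 382 and 420 FPKM with KO-labelled neutrophils. Its log2 change of -3.05 (adjusted p = 3.85e-06) lies between those of *Nqo1* and *Slc7a11*. *Marco*, a scavenger receptor, and *Esd*, an esterase, were next with -2.48 and -1.66 (adjusted p = 4.83e-05 and 6.77e-05). *Osgin1* and *Ephx1*, the latter an epoxide hydrolase, went the other way with 1.5 and 1.17 (adjusted p = 0.00463 and 7.75e-05).

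Of 14 tested genes that partner or regulate NRF2, 3 were lower and 2 were higher (21.4% and 14.3%, against 10.5% and 27.1% of all tested genes). *Maff* and *Mafk*, small MAF partners of NRF2, fell by 1.06 and 0.81 on the log2 scale (adjusted p = 0.000195 and 0.00154), and *Sqstm1*, whose product p62 binds KEAP1, fell by 0.79 (adjusted p = 0.000523). *Mafg*, another small MAF gene with a higher level than these MAF genes (mean 30.1 FPKM for the label WT), was not called. Its log2 fold change was -0.21 (95% interval -0.43 to 0.003, adjusted p = 0.109). *Bach1*, a repressor that competes with NRF2 for the same elements, rose from 14.4, 16.1 and 12.1 FPKM to 24.3, 23.6 and 21.5 FPKM, a log2 change of 0.69 (adjusted p = 0.00491), and *Trp53inp1* rose by 1.39 (adjusted p = 9.91e-05).

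Around *Slc7a11*, *Gclc*, *Gclm* and *Gsr*, 8 of 35 tested genes of glutathione synthesis and use were lower and 10 were higher. These are 22.9% and 28.6% of the list, against 10.5% and 27.1% of all tested genes. With median-of-ratios scaling or without replicate 3 of the group labelled KO 6 were higher, and without WT replicate 1, KO replicate 1 or KO replicate 2 the number lower was 5. *Slc3a2*, the heavy chain that pairs with xCT, had 197, 182 and 198 FPKM with WT-labelled neutrophils and 75.8, 64.8 and 66.7 FPKM with KO-labelled neutrophils, which gave a log2 change of -1.47 (adjusted p = 5.39e-05), a smaller fall than that of *Slc7a11*. *Glrx*, a glutaredoxin, and *Gsta4*, a glutathione transferase, were lower with -1.57 and -1.20 (adjusted p = 5.13e-05 and 0.00377). *Chac1*, which degrades glutathione, *Mgst3* and *Ggt5* were higher with 1.25, 1.22 and 1.12 (adjusted p = 0.0024, 0.00102 and 0.00391). In the libraries labelled WT *Chac1* had only 0.696, 0.602 and 0.333 FPKM and *Ggt5* 0.474, 0.204 and 0.407 FPKM. *Gsta4* was also low, with 0.764, 0.647 and 0.932 FPKM in those labelled KO. Of the 18 genes of this list with a mean of at least 5 FPKM, 5 were lower and 4 higher. *Gpx4*, which reduces lipid peroxides, had a log2 fold change of 0.15 (95% interval -0.22 to 0.51, adjusted p = 0.492).

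Around *Txnrd1*, *Prdx1* and *Srxn1*, 5 of 19 genes of thioredoxin and peroxide removal were lower and 5 were higher. Each count is 26.3% of the list, against 10.5% lower and 27.1% higher among all tested genes. *Prdx6* had 151, 151 and 191 FPKM with WT-labelled neutrophils and 15.1, 14.2 and 19.2 FPKM with KO-labelled neutrophils, which gave a log2 change of -3.31 (adjusted p = 1.28e-05), and *Prdx5*, *Selenow* and *Txn1*, the cytosolic thioredoxin, were lower with -2.08, -1.14 and -0.82 (adjusted p = 0.00039, 0.00138 and 0.0127). *Sesn1*, a sestrin, rose from 3.88, 3.07 and 4.07 FPKM to 39.0, 39.8 and 43.8 FPKM, a log2 change of 3.31 (adjusted p = 5.02e-06), and *Msrb2* and *Txnip*, an inhibitor of thioredoxin, rose by 1.55 and 1.05 (adjusted p = 0.000997 and 0.0021).

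*Gsr*, *Txnrd1* and *Nqo1* draw on NADPH. The list of NADPH supply also holds enzymes that do not make NADPH themselves or that act outside the cytosol. Of its 18 tested rows, 3 were lower and 5 were higher. These are 16.7% and 27.8% of the list, against 10.5% and 27.1% of all tested genes. With median-of-ratios scaling 6 were lower and 2 higher, and without KO replicate 1 or KO replicate 2 the number higher was 3. *H6pd*, *Taldo1* and *Pgd*, all of pentose phosphate metabolism, were lower with -0.94, -0.93 and -0.72 (adjusted p = 0.0351, 0.000399 and 0.000554). *Aldh1l1*, *Idh2* and *Nnt* (1 of the 2 identifiers with this symbol, ENSMUSG00000116207) were higher with 1.02, 0.87 and 0.81 (adjusted p = 0.00262, 0.000618 and 0.0184). The other identifier of *Nnt*, ENSMUSG00000025453, had a log2 fold change of 0.02 (95% interval -0.64 to 0.68, adjusted p = 0.963). *Aldh1l1* was low in the libraries labelled WT, at 0.550, 0.621 and 0.348 FPKM. *G6pdx*, the entry enzyme of that pathway, had a log2 fold change of 0.10 (95% interval -0.12 to 0.33, adjusted p = 0.429).

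**Figure D4:**
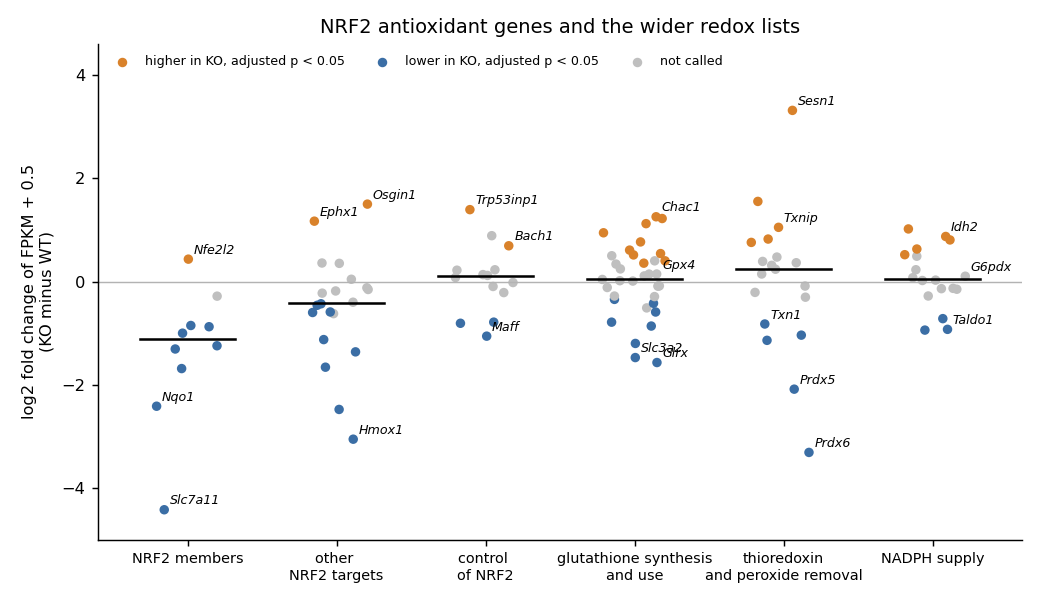
Log2 fold change (KO minus WT, on FPKM + 0.5) of the 10 members and of 5 lists of other redox genes, 1 point per tested gene, with a bar at the median of each list. Points in colour passed an adjusted p-value of 0.05. Of the 6 groups of genes the members have the lowest median, at -1.12, and *Hmox1* and *Prdx6* lie between *Nqo1* and *Slc7a11*.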

How the data were processed

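The authors deposited FPKM for 6 libraries, 3 per group. Their processing notes name fastp 0.17.1, HISAT2 2.1.0, DESeq2 1.18.1 and R 3.4.3. The quantification tool, annotation and build are not given in the sources used here. FPKM corrects for length and library total, so a change in abundant genes shifts the others. Symbols and positions came from GENCODE M21 (99.7% of identifiers matched). Of low values in genes with 1 transcript, 39.6% to 43.7% lay within 0.1 of a whole multiple of the smallest step (20% by chance), so whole reads were not recovered and count models were left out. Testing used limma 3.58.1 (R 4.3.3) on log2(FPKM + 0.5) for genes whose mean reached 0.5 FPKM (trend, two-sided, no covariates, Benjamini-Hochberg). The fit was tested on simulated data with known changes. The members and lists were chosen with earlier results of these data known. From each list, the 3 largest rises and falls past the threshold are named, with *Hmox1*, *Gpx4*, *Txn1*, *G6pdx* and *Bach1*, and *Mafg* beside the other small MAF genes. Promoter windows around RefSeq start sites were searched for fixed motifs. Exact permutation tests used scipy 1.17.1.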

Additional observations from a re-analysis of the deposited data

How the results depend on the processing

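Over 18 alternatives (other pseudocounts, filters, scalings and variance estimates, the block, and libraries left out, of which leaving out both libraries numbered 3 was chosen after seeing the data), *Slc7a11*, *Nqo1*, *Prdx1*, *Gclm*, *Gclc*, *Gsr*, *Txnrd1* and *Srxn1* stayed lower with an adjusted p-value under 0.05, the highest being 0.0222 for *Gclm*. *Nfe2l2* stayed higher, between 0.21 and 0.46, and passed in 16 of 18. *Keap1* stayed lower, between -0.50 and -0.20, and passed in 5 of 18, which includes leaving out both libraries numbered 3 (-0.36). The count of members past a fold change of 2 and an unadjusted p-value under 0.05, given as 6, was 8 with median-of-ratios or upper-quartile scaling. It was 5 with a pseudocount of 1, TPM rescaling or quantile normalization. The same count of 5 was found without WT replicate 3, KO replicate 2 or both libraries numbered 3. With median-of-ratios and upper-quartile scaling, 0 members were higher under either, and the members' median was -1.35 and -1.33. The same scalings set the median of all genes at -0.01 and 0.0003, and 47.7% and 49.6% of called genes were higher, against 72.0% as deposited. With a mean of at least 5 FPKM, 76 genes of the wider lists were tested, of which 14 were higher and 25 lower, against 24 and 28 of 106 as given. The filter thus took away more of the rises than of the falls. It did so over all genes too, where 1756 were higher and 983 lower of 6835, against 3619 and 1408 of 13367. The *Gclm* to *Gclc* difference lay between -0.38 and 0.17 with single libraries left out, and was above 0 without WT replicate 1 (0.03), WT replicate 3 (0.17) or KO replicate 2 (0.08). Of 180 counts in single lists, 165 stayed within 1.5 times the count given. No source says that replicate numbers pair libraries, and same-numbered libraries deviated together with correlations of 0.12, 0.04 and 0.26 over genes, where WT replicate 1 went best with KO replicate 2. With the replicate block, 8 members were lower and 1 was higher, and 5934 genes were called against 5027. FPKM without counts limits the precision of the low genes.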
